A study of Homo sapiens with 6 samples.

Results

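The transcriptional coactivators YAP1 and WWTR1 and 6 genes of the Hippo pathway that act as their targets or partners, CCN1, CCN2, ANKRD1, AMOTL1, AMOTL2 and AJUBA, were followed in A2058 cells, a human melanoma line in long-term culture. The 8 genes were chosen by name, with earlier results of these data known. Each is read here by every probe set that the platform annotation gives to that gene alone, where CCN1 also goes by CYR61 and CCN2 by CTGF. These were 19 probe sets of 41091 that name 1 gene. Of the 19, 18 passed the filter on low values, among 27035 tested probe sets for 14428 genes, and the AJUBA probe set 243446_at did not, at 2.20 to 2.48 on all arrays. There were 3 lines: one overexpressing wild-type TET2 (TET2WT), one overexpressing the construct that the labels call TET2M and elsewhere Mut, and a Mock line. TET2 converts 5-methylcytosine in DNA to its oxidised forms. Each line was kept for 7 days in DMEM at a glucose concentration of 4.5 g/L (high) or 1 g/L (normal), and each of the 6 combinations was read on 1 Affymetrix array of total RNA. The labels do not say what was changed in TET2M, which vectors were used or whether a line is 1 clone.

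The Hippo pathway is a kinase cascade that phosphorylates YAP1 and TAZ, the product of WWTR1, and so holds them in the cytoplasm. Where the cascade is less active, as in spread cells under tension, both enter the nucleus and bind TEAD factors at DNA. CCN1 and CCN2 encode secreted matrix-associated proteins and ANKRD1 a nuclear ankyrin repeat protein, and transcripts of all 3 are commonly used as readouts of YAP and TAZ. AMOTL1 and AMOTL2 encode angiomotin-family scaffolds that bind YAP1, and AJUBA a LIM protein that binds the LATS kinases. AMOTL2 is itself a target that feeds back on the pathway. YAP and TAZ are regulated largely through phosphorylation, localisation and stability of the proteins, none of which an RNA array reads.

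The promoter stretches that hold the core sequence bound by TEAD factors are shown because it is the DNA through which YAP1 and TAZ reach their targets. The sequences are from RefSeq on GRCh38.p14, 5′ to 3′ on the strand of the gene. Capitals mark GGAATG, or its reverse complement CATTCC, found in the 250 bases before an annotated start.
CCN2: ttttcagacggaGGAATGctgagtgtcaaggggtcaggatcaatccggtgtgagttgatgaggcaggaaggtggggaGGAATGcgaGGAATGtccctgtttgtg
ANKRD1: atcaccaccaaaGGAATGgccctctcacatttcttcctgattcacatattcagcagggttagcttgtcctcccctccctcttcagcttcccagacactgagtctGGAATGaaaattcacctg
AMOTL2: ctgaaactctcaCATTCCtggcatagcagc
AJUBA: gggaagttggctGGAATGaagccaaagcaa
YAP1: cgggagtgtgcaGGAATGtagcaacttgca
The CCN2 stretch is chr6:131951450-131951553 on the minus strand, and its 3 matches begin 169, 104 and 95 bases before the start of transcription. The ANKRD1 stretch is chr10:90921198-90921319 on the minus strand, with matches beginning 220 and 128 bases before the start. AMOTL2, at chr3:134374499-134374528 on the minus strand, has 1 match on the other strand, 69 bases before the start. AJUBA has 1 match 59 bases before the inner of its 2 starts, at chr14:22976884-22976913 on the minus strand. YAP1 has 1 match, 162 bases before its start, at chr11:102110273-102110302 on the plus strand. No match lay in the windows of AMOTL1 (gene at chr11:94706460-94876748), of either start of WWTR1 (gene at chr3:149517235-149724788), or of the outer starts of AJUBA and AMOTL2. CCN1, at chr1:85580761-85583950, was not searched. The 7 genes with an entry had 10 promoters, 5 of them with a match. Of all 35116 promoters in the table, 11.9% held at least 1 match, 0.94% at least 2 and 0.0826% at least 3. A match describes these letters only, and distal enhancers were not analysed here.

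On genes used to check the labels, TET2 probe set 1569385_s_at read, at high and normal glucose, 9.54 and 9.68 in TET2WT, 7.57 and 7.37 in TET2M, and 3.81 and 4.13 in Mock. TET2 235461_at had the same order, with 6.64 and 6.87, 4.57 and 3.89, and 2.10 and 2.64. TET2 227624_at did not separate the lines, at 5.15 to 5.41 on all arrays. Of the melanocyte lineage markers, SOX10 read 9.38 to 9.65, MITF 6.30 to 6.96 and S100B 7.20 to 7.90 over the 6 arrays, while the pigment genes MLANA and TYRP1 lay below the filter of 2.64 on every array and TYR at or below it. PMEL, another pigment gene, read 3.55 to 4.20. The measured markers of blood, endothelial cells and fibroblasts lay at or below 5.12. Of the keratinocyte markers, KRT10 read 9.23 to 9.39 and KRT14 3.89 to 6.86, while KRT1 and KRT5 lay at or below 3.54. No combination was measured more than once, so the error of a difference came from its scatter among the 3 lines or between both concentrations. In the fits with line and glucose alone, that scatter joins the noise of single arrays with any unlike glucose response of the lines. Part of it may be technical, and such p-values cover no repeat of a culture. Values below are log2 probe set values, differences are log2 differences with the standard error from limma after ±, and a probe set counts as passing at an adjusted p under 0.05 in limma.

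**Figure D1:**
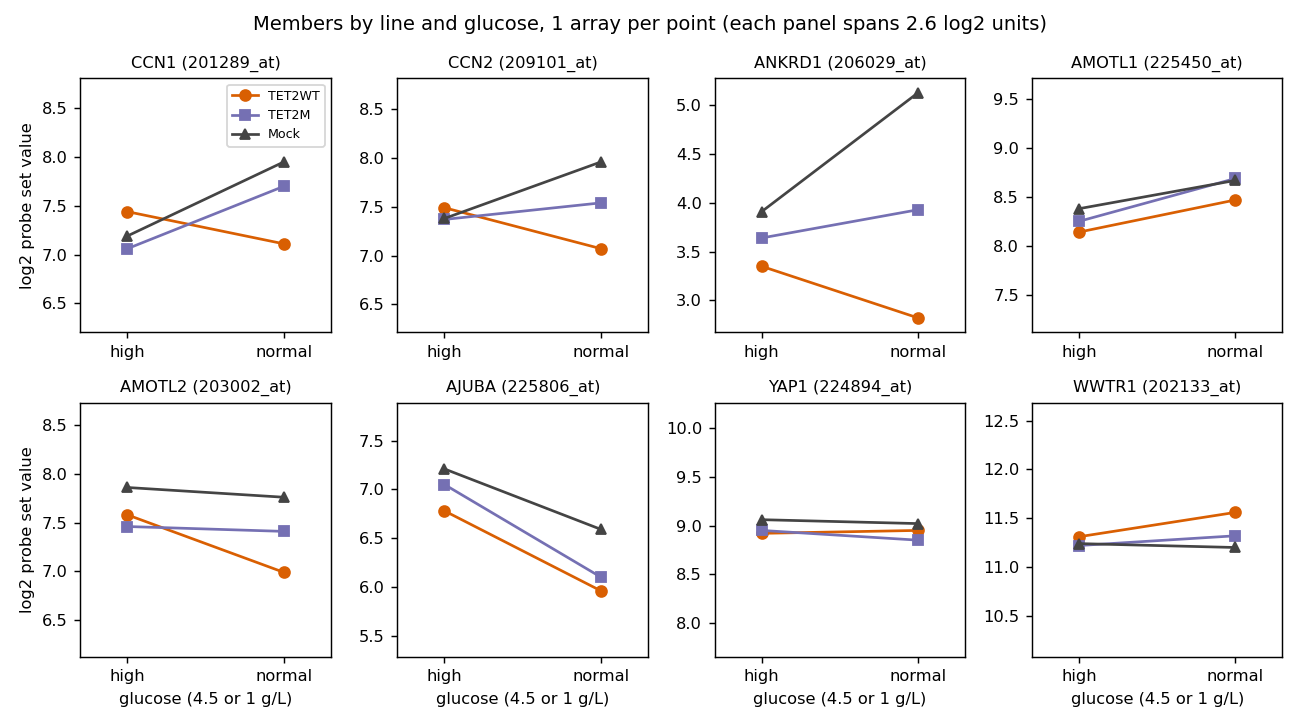
Log2 value (vertical axis) of 1 probe set for each of the 8 genes, at high and normal glucose (horizontal axis), with 1 point per array and a line joining the arrays of TET2WT (circles), TET2M (squares) and Mock (triangles). AJUBA was higher at high glucose in all 3 lines, CCN1, CCN2 and ANKRD1 ran in opposite directions in TET2WT and Mock, and YAP1 stayed between 8.85 and 9.06.

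Over the 3 lines, the largest glucose differences among the 8 genes were those of AJUBA, the LIM protein that binds the LATS kinases. AJUBA was higher at high glucose in each of the 3 lines on all 3 tested probe sets, by 0.41 to 1.26, although limma's adjusted p did not pass for any of them. AMOTL1 225450_at was lower at high glucose in each line, with differences of -0.29 to -0.44. YAP1 and WWTR1 themselves differed by no more than 0.25 in any line. AJUBA 1553764_a_at read 6.80 in TET2WT, 6.55 in TET2M and 7.10 in Mock at high glucose, against 5.54, 5.64 and 6.13 in the same lines at normal glucose. The lowest high-glucose array thus lay above the highest normal-glucose array. AJUBA 225806_at read 6.78, 7.05 and 7.21 in TET2WT, TET2M and Mock at high glucose and 5.96, 6.10 and 6.59 at normal glucose. AJUBA 225807_at read 4.17, 4.05 and 4.10 at high glucose and 3.54, 3.64 and 3.53 at normal glucose in the same order of lines. The arrays of both concentrations were apart on each of these probe sets. The differences were 1.05 ± 0.098, a 2.07-fold higher value (adjusted p = 0.0896, limma), 0.80 ± 0.094, or 1.74-fold (adjusted p = 0.0909, limma), and 0.54 ± 0.086, or 1.45-fold (adjusted p = 0.143, limma). Of all tested probe sets 0.0721%, 0.192% and 0.832% had a larger absolute difference than these. In bulk RNA, fewer cells that express a gene and less RNA of it per cell cannot be told apart.

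None of the 18 probe sets passed for glucose, nor did any of the 8 genes by its representative probe set, that with the highest mean. Over all probe sets 0.0037% passed, and over all genes 0.00693%. At an unadjusted p under 0.05 there were 5 of the 18, against 13.9% of all, and these were the 3 AJUBA probe sets, AMOTL1 225450_at and CCN1 210764_s_at. When the variance was given a trend on intensity, the AJUBA probe sets passed (adjusted p = 0.000259, 0.000749 and 0.0463 in limma, in the order above) and so did AMOTL1 225450_at (adjusted p = 0.0109), where 2.32% of all probe sets did. Over all alternatives the adjusted p of all 4 reached 0.702, that of AJUBA 1553764_a_at ran between 0.000259 and 0.702 and its difference between 0.94 and 1.12. The ACTB 3′ to 5′ difference, a measure of RNA integrity and labelling, was also higher at high glucose in each line. It was 2.06 in TET2WT, 1.93 in TET2M and 2.02 in Mock, against 1.90, 1.65 and 1.94 at normal glucose. That of GAPDH was higher at high glucose in TET2WT only. It read 0.35, 0.28 and 0.29 at high glucose in the same lines and 0.25, 0.28 and 0.32 at normal glucose. The part of either in these results was not tested.

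The angiomotin-family genes had smaller glucose differences than AJUBA. AMOTL1 225450_at read 8.14 in TET2WT, 8.25 in TET2M and 8.38 in Mock at high glucose, against 8.47, 8.69 and 8.67 at normal glucose. All 3 high-glucose arrays lay below the normal-glucose arrays, with a difference of -0.35 ± 0.081 (adjusted p = 0.218, limma). The other AMOTL1 probe sets differed by -0.12 to -0.18 over the 3 lines, and 228840_at was the only one of them lower in every line. AMOTL2 read 7.58 in TET2WT, 7.46 in TET2M and 7.86 in Mock at high glucose and 6.99, 7.41 and 7.76 at normal glucose. Its difference of 0.25 ± 0.12 (adjusted p = 0.430, limma) came mostly from TET2WT, where the arrays were 0.59 apart, against 0.05 in TET2M and 0.10 in Mock.

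**Figure D2:**
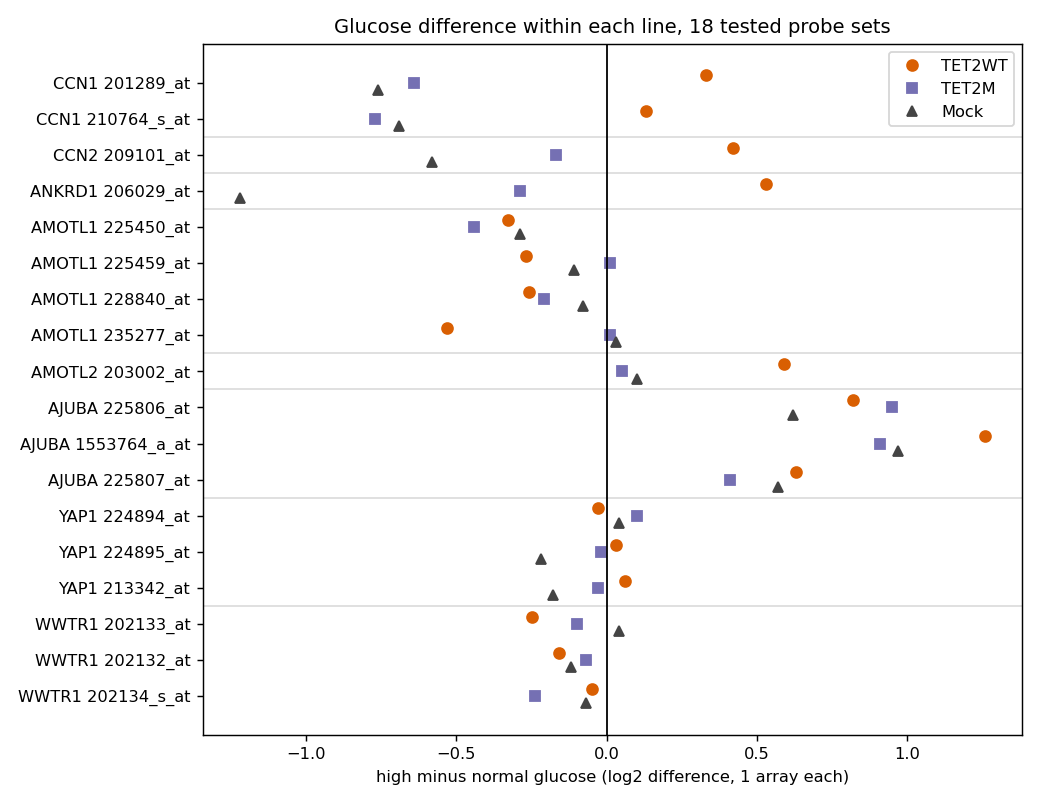
High minus normal glucose on the log2 scale (horizontal axis) for the 18 tested probe sets (rows) within TET2WT (circles), TET2M (squares) and Mock (triangles), each point from 1 array at each concentration. The AJUBA rows lie between 0.41 and 1.26 in all lines, and the CCN1, CCN2 and ANKRD1 rows have the TET2WT point right of 0 and the others left of it.

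CCN1, CCN2 and ANKRD1 were higher at high glucose in TET2WT and lower at high glucose in TET2M and Mock. CCN1 201289_at read 7.44 in TET2WT, 7.06 in TET2M and 7.19 in Mock at high glucose, against 7.11, 7.70 and 7.95 at normal glucose. Its within-line differences were thus 0.33, -0.64 and -0.76. The second CCN1 probe set, 210764_s_at, read 6.52, 6.26 and 6.49 in TET2WT, TET2M and Mock at high glucose and 6.39, 7.03 and 7.18 at normal glucose, with differences of 0.13, -0.77 and -0.69. The probe sets of CCN1 gave the same signs in each line. CCN2 read 7.49 in TET2WT, 7.37 in TET2M and 7.38 in Mock at high glucose, all within 0.12, and 7.07, 7.54 and 7.96 at normal glucose. The lines were therefore spread at normal glucose, with TET2WT lowest and Mock highest. ANKRD1 read 3.35, 3.64 and 3.91 in TET2WT, TET2M and Mock at high glucose and 2.82, 3.93 and 5.13 at normal glucose, which gave differences of 0.53, -0.29 and -1.22. The TET2WT array at normal glucose was close to the filter, so its ANKRD1 value is near background.

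The order of the lines at normal glucose, TET2WT then TET2M then Mock from low to high, was seen for 7 of the 18 probe sets, against 20.9% of all tested. These were both CCN1 probe sets, CCN2, ANKRD1, AMOTL2 and the AJUBA probe sets 225806_at and 1553764_a_at. The order was read from these same arrays, and probe sets of the same gene are not independent, so the count is a description only. TET2M minus Mock was -0.15 to -0.42 for CCN1 and CCN2, within the absolute difference of 0.45 that 95% of probe sets did not exceed between those arrays, and -1.20 for ANKRD1. TET2WT minus Mock was -0.79 to -0.89 for CCN1 and CCN2 and -2.31 for ANKRD1, past the corresponding 0.59. At high glucose TET2WT minus Mock was 0.25 and 0.03 for CCN1, 0.11 for CCN2 and -0.56 for ANKRD1, all within the 0.63 of those arrays. These are descriptions of single pairs of arrays.

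In a test of the difference between lines, the glucose response of TET2WT exceeded the mean response of TET2M and Mock by 1.03 ± 0.13 and 0.86 ± 0.12 for the CCN1 probe sets, 0.795 ± 0.24 for CCN2 and 1.285 ± 0.48 for ANKRD1 (adjusted p = 0.582 for each, limma). That fit leaves 1 residual degree of freedom, and 0 of the 18 probe sets passed, as did 0% of all 27035. At an unadjusted p under 0.05 there were 5 of 18 and 2223 of all, or 8.22%. The 95% interval of the CCN1 201289_at difference ran from 0.61 to 1.45, and that of ANKRD1 from -0.28 to 2.85. The next largest positive value was that of AMOTL2, at 0.515 ± 0.12, and AMOTL1 235277_at lay on the other side, at -0.55 ± 0.12. Of the 18 probe sets 6 were higher at high glucose in TET2WT and lower in TET2M and Mock, those of CCN1, CCN2 and ANKRD1 and 2 of YAP1, against 13.4% of all tested. The opposite signs were seen for 2, AMOTL1 235277_at and YAP1 224894_at, against 11.1% of all. For the response of Mock against the other lines, 0 of 18 passed and 0% of all, with ANKRD1 at -1.34 ± 0.41 (adjusted p = 0.991, limma), an absolute difference exceeded by 0.0092% of probe sets. For the response of TET2M, 0 of 18 passed and 0% of all, with a lowest adjusted p of 0.998.

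With opposite signs in the lines, the difference over the 3 lines was smaller in size than that within Mock for these genes. It was -0.36 ± 0.21 and -0.44 ± 0.18 for the CCN1 probe sets (adjusted p = 0.491 and 0.353, limma), -0.11 ± 0.18 for CCN2 and -0.33 ± 0.30 for ANKRD1 (adjusted p = 0.828 and 0.663, limma). Leaving out 1 array or 1 line turned the sign of the CCN2 and ANKRD1 differences, which ran from -0.375 to 0.125 and from -0.755 to 0.12.

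**Figure D3:**
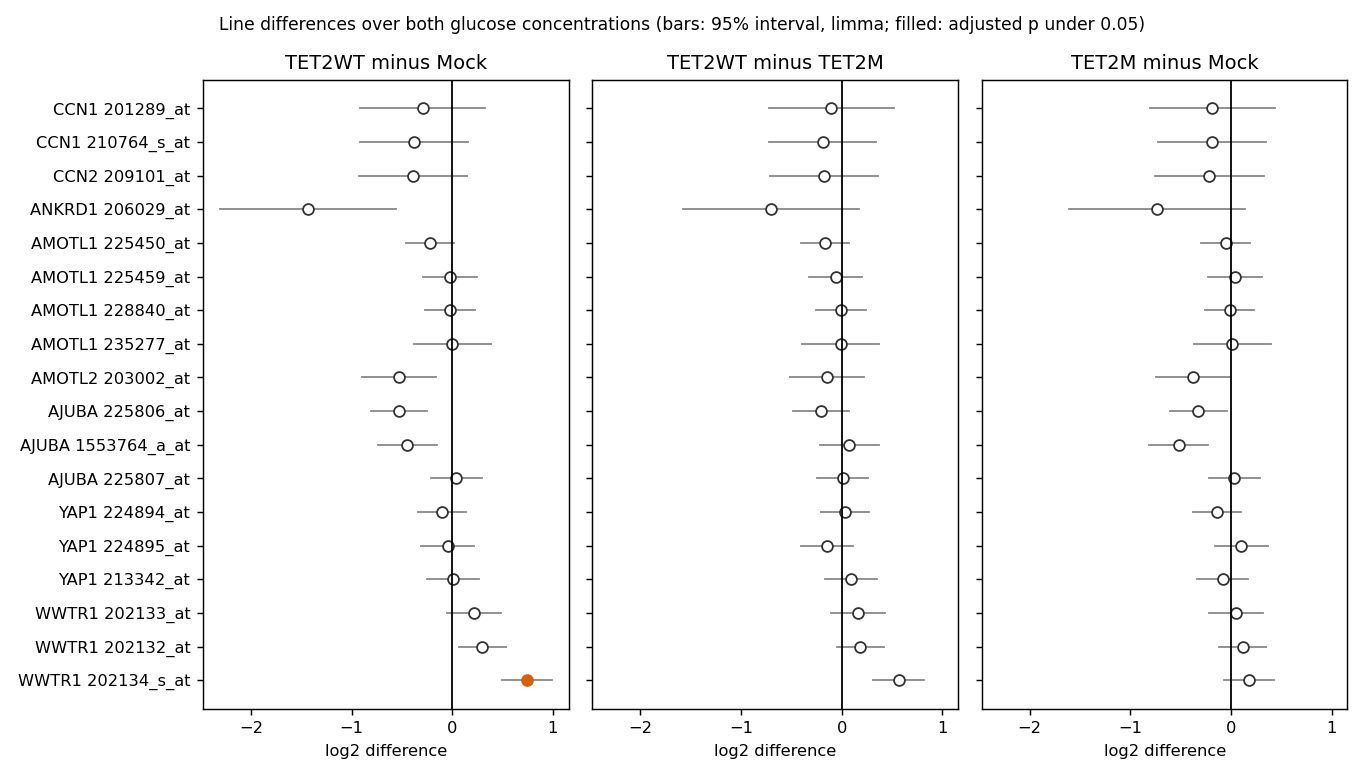
Differences between lines over both concentrations on the log2 scale (horizontal axis) for the 18 tested probe sets (rows), with the 95% interval from limma as a bar and a filled point where the adjusted p was under 0.05. WWTR1 202134_s_at is the only filled point, in TET2WT minus Mock, and ANKRD1 has the widest intervals.

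Between the lines, WWTR1 was the gene that rose in TET2WT, on 1 of its 3 probe sets. WWTR1 202134_s_at read 9.81 and 9.86 in TET2WT at high and normal glucose, 9.15 and 9.39 in TET2M and 9.06 and 9.13 in Mock. Both TET2WT arrays were above the other 4. Its difference was 0.74 ± 0.10 between TET2WT and Mock, or 1.67-fold (adjusted p = 0.0238, limma). The other WWTR1 probe sets also had higher means in TET2WT and did not pass. WWTR1 202132_at read 10.87 and 11.03 in TET2WT, 10.73 and 10.80 in TET2M and 10.59 and 10.71 in Mock, with 0.30 ± 0.096 between TET2WT and Mock (adjusted p = 0.186, limma). WWTR1 202133_at read 11.31 and 11.56 in TET2WT, 11.22 and 11.32 in TET2M and 11.24 and 11.20 in Mock, with 0.215 ± 0.11 (adjusted p = 0.377, limma). The 3 probe sets thus differ in size, and the parts of the transcript they read were not analysed here. With any 1 array left out the difference of 202134_s_at was 0.69 to 0.79. It did not pass in those fits, which leave fewer residual degrees of freedom and in which hardly any probe set passed.

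The coactivator YAP1 had differences between lines from -0.145 to 0.10 over its 3 probe sets. YAP1 224894_at read 8.92 and 8.95 in TET2WT, 8.95 and 8.85 in TET2M and 9.06 and 9.02 in Mock. Its difference between TET2WT and Mock had a 95% interval of -0.34 to 0.13. The other YAP1 probe sets read 8.31 to 8.53 and 8.12 to 8.31 over the 6 arrays, and none passed in any comparison.

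ANKRD1, AMOTL2 and AJUBA had lower means in TET2WT than in Mock without passing. For ANKRD1, with the values given above, the difference was -1.44 ± 0.36 (adjusted p = 0.113, limma), and its size is limited by the TET2WT values near background. It ran from -2.11 to -0.77 when arrays were left out one at a time. AMOTL2 differed by -0.525 ± 0.15 (adjusted p = 0.154, limma), and both Mock arrays were above the other 4. AJUBA 225806_at differed by -0.53 ± 0.12 and 1553764_a_at by -0.445 ± 0.12 (adjusted p = 0.0810 and 0.134, limma), while 225807_at differed by 0.04 ± 0.10, so the AJUBA probe sets disagreed. CCN1 and CCN2 differed by -0.295 to -0.39 and AMOTL1 by -0.22 to 0, with adjusted p of at least 0.320 in limma. The array left out decided the sign for both CCN genes. Without the TET2WT array at normal glucose the CCN1 and CCN2 differences were above 0, at 0.22 and 0.05 for the CCN1 probe sets and 0.0075 for CCN2.

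In counts, 1 of the 18 probe sets passed between TET2WT and Mock, against 2.63% of all probe sets, and 0 of the 8 genes by their representative probe set, against 3.16% of all genes. The median difference was -0.075 over the 18 and -0.025 over all. With a variance trend on intensity 6 passed, against 7.43% of all: WWTR1 202132_at and 202134_s_at, AJUBA 225806_at and 1553764_a_at, AMOTL2 and ANKRD1. Between TET2M and Mock 0 of 18 passed, against 0.0555% of all probe sets, and 0 of 8 genes, against 0.0901%. At an unadjusted p under 0.05 there were 3 of the 18 and 8.61% of all. The largest differences there were ANKRD1 at -0.735 ± 0.36 (adjusted p = 0.638, limma) and AJUBA 1553764_a_at at -0.52 ± 0.12 (adjusted p = 0.451, limma). Between TET2WT and TET2M 0 of 18 passed, against 1.84% of all probe sets, and 0 of 8 genes, against 2.32%. At an unadjusted p under 0.05 there was 1 of the 18, against 15.1% of all probe sets. It was WWTR1 202134_s_at, at 0.565 ± 0.10 (adjusted p = 0.0602, limma). With the variance trend it passed (adjusted p = 0.00024, limma), as did 202132_at, against 6.07% of all. Over all alternatives its adjusted p lay between 0.00024 and 0.558. These 3 comparisons share arrays, so their values are not independent.

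A marker of keratinocytes and a marker of fibroblasts fell in TET2WT against Mock, where 1.65% of all genes fell. KRT14, a basal keratinocyte keratin, read 4.55 and 3.89 in TET2WT, 6.22 and 5.91 in TET2M and 6.86 and 6.38 in Mock, with -2.40 between TET2WT and Mock (adjusted p = 0.000553, limma). LUM, which encodes a matrix proteoglycan of fibroblasts, differed by -1.06 (adjusted p = 0.0178, limma). Both also fell against TET2M, with -1.845 for KRT14 and -1.325 for LUM (adjusted p = 0.00194 and 0.00959, limma), where 0.929% of all genes fell. With 1 array left out, the differences from Mock were -1.26 to -0.86 for LUM and -2.53 to -2.27 for KRT14. LUM passed in none of those fits and KRT14 in only some. They leave fewer residual degrees of freedom, and hardly any probe set passed in them. The other 3 keratinocyte markers did not pass and had differences of 0.025 for KRT1, 0.055 for KRT5 and 0.01 for KRT10, so the lower sum of that list in TET2WT came from KRT14. The 3 other tested fibroblast markers did not pass either, with 0.34 for COL1A1, 0.13 for PDGFRA and -0.195 for DCN. None of the tested melanocyte markers passed between TET2WT and Mock, with -0.595 for MITF, 0.115 for SOX10, 0.155 for PMEL and 0.24 for S100B. The summed level of the 4 keratinocyte markers was 18.68 to 20.08 in TET2WT, 20.39 to 21.77 in TET2M and 21.68 to 21.70 in Mock, and that of the 5 fibroblast markers 15.95 to 16.98, 17.57 to 18.34 and 17.05 to 17.38. Their part in the line differences was not tested.

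**Figure D4:**
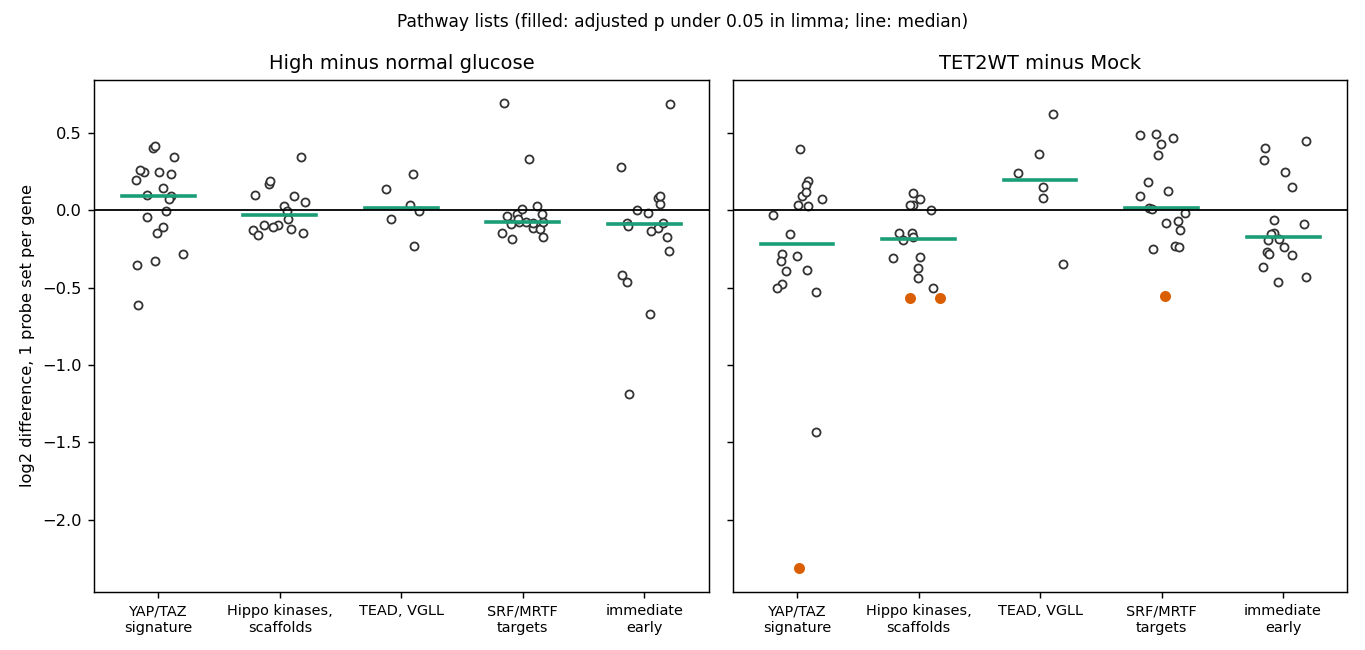
Log2 differences (vertical axis) of the tested genes of 5 pathway lists (columns), 1 point per gene by its representative probe set, for high minus normal glucose (left) and TET2WT minus Mock (right), with the median as a line and filled points where limma's adjusted p was under 0.05. No point is filled for glucose, and 4 are filled for TET2WT minus Mock, all below 0, of which IGFBP3 lies at -2.32.

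Of the genes upstream of YAP1 and TAZ, the kinases and scaffolds of the pathway had 16 of 17 members tested. For glucose 0 passed, against 0.00693% of all genes. There 7 were positive and 9 negative, with a median of -0.03 against -0.02 over all genes. Between TET2WT and Mock 0 of the 16 rose and 2 fell, where 1.51% of all genes rose and 1.65% fell, with a median of -0.18 against -0.01 over all genes. These were WWC1, or KIBRA, a scaffold of the cascade, at -0.57 ± 0.10 (adjusted p = 0.0450, limma), and FRMD6, a FERM-domain protein, at -0.565 ± 0.10 (adjusted p = 0.0483, limma). FRMD6 read 8.66 and 8.66 in TET2WT, 9.39 and 9.48 in TET2M and 9.13 and 9.32 in Mock, and it was also lower in TET2WT than in TET2M (-0.775 ± 0.10, adjusted p = 0.0219, limma), the only one of the 16 to fall there, against 0.929% of all genes. WWC1 lay close to background, at 2.83 to 3.45 on all arrays. The kinase gene LATS2, itself a target of YAP, differed by -0.50 ± 0.12 between TET2WT and Mock and by 0.35 ± 0.10 between the concentrations, neither of which passed (adjusted p = 0.105 and 0.262, limma).

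The TEAD factors and their VGLL competitors had 6 of 8 members tested, and 0 passed in any line or glucose comparison. Over all genes 0.00693% passed for glucose. Between lines 3.16% passed in TET2WT against Mock, 0.0901% in TET2M against Mock and 2.32% in TET2WT against TET2M. TEAD1, the DNA-binding partner, read 9.11 and 9.21 in TET2WT, 8.78 and 8.87 in TET2M and 8.81 and 8.78 in Mock, with 0.365 ± 0.099 between TET2WT and Mock (adjusted p = 0.134, limma). VGLL4, which competes with YAP1 for TEAD, differed by 0.625 ± 0.12 (adjusted p = 0.0524, limma). Both genes were higher on the TET2WT arrays than on the other 4. Of the 6 tested, 5 were positive between TET2WT and Mock and 1 negative. Some of the positive genes lay close to background, at 3.49 or less on all arrays, with differences of only 0.08 and 0.15. The negative was TEAD4, which read 6.53 and 6.14 in TET2WT and 6.72 and 6.64 in Mock (-0.345 ± 0.13, adjusted p = 0.249, limma). Of the relatives of the 8 genes, 6 of 9 were tested and 0 passed, against the same shares of all genes. LIMD1, a LIM protein related to AJUBA, read 4.60, 4.50 and 4.89 at high glucose in TET2WT, TET2M and Mock and 4.27, 4.21 and 4.42 at normal glucose, a difference of 0.36 ± 0.083 (adjusted p = 0.218, limma).

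A published list of 22 YAP and TAZ target genes, 4 of them among the 8 genes here, had 20 members tested. For glucose 0 passed, against 0.00693% of all genes, 12 were positive and 8 negative, and the median was 0.095 against -0.02 over all genes. The 4 largest absolute differences were IGFBP3 at -0.61, FOXF2 at 0.41, CRIM1 at 0.40 and CCN1 at -0.36. Between TET2WT and Mock 0 of the 20 rose and 1 fell, against the same 1.65% of all genes, 8 were positive and 12 negative, and the median was -0.22 against -0.01. The gene that fell was IGFBP3, which encodes a secreted carrier of insulin-like growth factors. It read 6.40 and 7.33 in TET2WT, 8.51 and 9.30 in TET2M and 9.12 and 9.24 in Mock, with differences of -2.32 ± 0.20 from Mock (adjusted p = 0.00490, limma) and -2.04 ± 0.20 from TET2M (adjusted p = 0.00843, limma). Both TET2WT arrays were below the other 4 by more than 1 log2 unit. The receptor tyrosine kinase AXL, at 9.44 to 9.83 on all arrays, differed by 0.03 ± 0.10 between TET2WT and Mock.

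CCN1, CCN2 and ANKRD1 also respond to other transcription factors, of which SRF with its coactivators and the immediate early factors were read through their own lists. Of the SRF targets, 18 of 22 were tested. For glucose 0 passed, against 0.00693% of all genes, 4 were positive and 14 negative, and the median was -0.075 against -0.02 over all genes. TPM1, a tropomyosin of actin filaments, read 9.10, 9.46 and 9.62 in TET2WT, TET2M and Mock at high glucose and 8.35, 8.81 and 8.94 at normal glucose, and was thus higher at high glucose in each line (0.69 ± 0.079, adjusted p = 0.0909, limma). TPM1 fell in TET2WT against Mock (-0.555 ± 0.097, adjusted p = 0.0441, limma), the only one of the 18 to pass there, where 1.65% of all genes fell, and CALD1, an actin-binding protein, rose in TET2WT against TET2M (0.64 ± 0.11, adjusted p = 0.0452, limma), where 1.39% of all genes rose. Of the immediate early genes, 18 of 20 were tested and 0 passed in any line or glucose comparison, where at most 3.16% of all genes passed. EGR1 read 7.30, 7.52 and 7.39 at high glucose in TET2WT, TET2M and Mock, against 8.10, 9.12 and 8.55 at normal glucose, a difference of -1.19 ± 0.15 (adjusted p = 0.0985, limma). Unlike CCN1, it was lower at high glucose in all 3 lines. Its TET2WT response still exceeded the mean of the other lines, by 0.58 ± 0.25 (adjusted p = 0.587, limma). For FOSL1 that value was 0.635 ± 0.18 and for ATF3 -0.72 ± 0.12 (adjusted p = 0.582 for both, limma). Of the 18 genes, 5 were positive and 12 negative for glucose. Among the positive was ATF3 (0.69 ± 0.16, adjusted p = 0.215, limma). The SRF target FHL2 had the signs of CCN1. FHL2 read 8.71, 8.02 and 7.86 at high glucose in TET2WT, TET2M and Mock and 8.32, 8.33 and 8.20 at normal glucose. Its TET2WT response exceeded the mean of the others by 0.715 ± 0.12 (adjusted p = 0.582, limma). In the SRF and immediate early lists alike, that value was positive for 9 genes and negative for 9. Of the list genes that passed between lines, WWC1, FRMD6, IGFBP3, TPM1 and CALD1, each kept its sign with any 1 array left out. None passed in those fits, which leave fewer residual degrees of freedom and in which hardly any probe set passed.

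The genes whose pattern over the 6 arrays was most like that of CCN1, CCN2 and ANKRD1 were sought among 549 genes whose range was at least 1 log2 unit. These correlations describe 6 arrays that share their lines and were not tested. For ANKRD1 they were PRSS33 (Pearson r = 0.961), COXFA4L3 (0.959) and HDAC9 (0.949). COXFA4L3 read 2.77 and 2.64 in TET2WT, 3.17 and 3.67 in TET2M and 4.25 and 5.52 in Mock, so the Mock array at normal glucose was the highest, as for ANKRD1. For CCN2 they were PRSS33 (0.836), TSPAN11 (0.831) and COXFA4L3 (0.823), and for CCN1 ZNF354B (0.80), NPTX2 (0.777) and TSPAN11 (0.727). TSPAN11, a tetraspanin, read 3.39 and 3.06 in TET2WT, 3.57 and 4.01 in TET2M and 3.86 and 4.18 in Mock.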

How the data were processed

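Total RNA of 6 A2058 cultures was hybridised to 1 Affymetrix array each. Per the submitters' processing notes, the authors used Affymetrix Expression Console to make the deposited log2 values. No version or summary method is given in the sources used here, and base 2 was inferred from the range of the values. Sorted columns differed by 0.12 or less, which shows normalization to nearly 1 distribution before deposit. No further normalization was applied. Of 54675 probe sets, 41091 name 1 gene, 1801 several and 11777 none, and 62 are controls. Symbols were updated by gene ID from a RefSeq table of GRCh38.p14. Probe sets with a mean under the 40th percentile (2.64) were left out.

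The models were fitted to all 27035 remaining probe sets with limma 3.58.1 in R 4.3.3 (lmFit, eBayes), with line and glucose as terms (2 residual degrees of freedom) or with a glucose term for 1 line added (1 residual degree of freedom). Tests were two-sided with Benjamini-Hochberg adjustment over all probe sets. They were also run on simulated data, where recovery of changes was required for the line and glucose comparisons only, not for the response of 1 line. The number of arrays limits precision. Tables were handled with the R package data.table (version 1.17.8) and pandas 2.3.3, and plots made in Python 3.11.15 with matplotlib 3.10.9. The 8 genes, the pathway and marker lists and the naming rule were chosen with earlier results of these data known. The rule names all 8 genes with every probe set, up to 4 genes with the largest differences of each list, and the 3 genes most like CCN1, CCN2 and ANKRD1. AXL was named outside this rule, after its values were seen. Alternatives were quantile normalization, no filter, 1 probe set for each gene, a variance trend on intensity, fewer terms, and leaving out arrays or lines.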

Additional observations from a re-analysis of the deposited data

Results flagged for a closer look

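For 8 probe sets the glucose difference had 1 sign in TET2WT and the opposite sign in both TET2M and Mock. The differences between the response of TET2WT and the mean response of the other lines were 1.03 for CCN1 201289_at, 0.86 for CCN1 210764_s_at, 1.285 for ANKRD1 and 0.795 for CCN2. They were -0.55 for AMOTL1 235277_at, where TET2WT read 5.38 at high and 5.91 at normal glucose and the other 4 arrays 5.63 to 5.66. For YAP1, with within-line differences between -0.22 and 0.10, they were 0.165 for 213342_at, -0.10 for 224894_at and 0.15 for 224895_at. None passed limma's adjusted test, which left 1 residual degree of freedom, and the YAP1 values were no larger than the median absolute value of all probe sets, 0.165.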

How the results depend on the processing

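Quantile normalization and no filter on low values each left all 126 values of the 18 probe sets on their side of the threshold, and 1 probe set for each gene left all 56. Quantile normalization turned the sign of 5 values, none over 0.02 in size. WWTR1 202134_s_at represents no gene, so with 1 probe set for each gene 0 passed between TET2WT and Mock. For glucose, 1 probe set of all passed, against 4 after quantile normalization, 4 without the filter, 627 with a variance trend on intensity and 0 without the line term, without any 1 line or with any 1 array left out (0 to 0). The trend gave 4 of the 18. Between TET2WT and Mock, 1 of the 18 and 712 of all passed. With the trend these were 6 and 2010, and without the TET2M line 0 and 24. With 1 array left out they were 0 to 0 of the 18 and 0 to 24 of all, and without the glucose term 404 of all. Between TET2M and Mock 15 of all passed, against 114 with the trend, 7 without the glucose term, 0 without the TET2WT line and 0 to 0 with 1 array left out. Between TET2WT and TET2M 498 of all passed, against 1641 with the trend, with 2 of the 18, 321 without the glucose term, 0 without the Mock line and 0 to 0 with 1 array left out. Leaving out an array or a line leaves fewer residual degrees of freedom, and for the response of 1 line it leaves none, so that no value is given there. For the other changes the cause was not tested. The line term makes the glucose fit a comparison within lines, and without it the samples are unpaired. Replicate numbers, which the labels do not carry, could not be used for pairing. The arrays carry no repeat of any combination, and values near background, such as ANKRD1 in TET2WT, are less certain than those of WWTR1 or YAP1.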
